A study of Mus musculus with 10 samples.

Results

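Serpins are a family of proteins that mostly block serine proteases. A serpin offers an exposed loop as bait, the protease cuts it and stays bound to it, and the loop then inserts into a sheet of the serpin and drags the distorted enzyme along, so that both are spent. The clade letter in the symbol groups them by descent. Clade A holds secreted relatives of antitrypsin and antichymotrypsin, clade B holds mostly intracellular inhibitors that protect cells from their own or from leaked proteases, and the smaller clades hold the regulators of clotting, fibrinolysis and complement. A few members, such as the collagen chaperone Serpinh1, have lost the inhibitory function. In muscle, several are known from extracellular matrix turnover, injury and innervation.

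The serpin family was taken as all protein-coding genes whose symbol begins with Serpin, without Serpine2, which is not analysed here. Reported here are 59 such genes of 54232 genes in the table. RNA-Seq was performed on gastrocnemius muscle of 5 homozygous desmin knock-out mice (Des -/-) and 5 wild-type littermates (Des wt/wt) at 3 months of age, both under the same strain label, which names the desmin allele Destm1Cba. The knock-out is not restricted to muscle, and a figure legend of the study names the plantaris muscle beside the gastrocnemius. The methods speak of pooled RNA whereas the table has a column for each of 10 mice, and each column was used as 1 replicate. The authors deposited rlog values (the regularized log of DESeq2), a log2 scale that corrects for library size and shrinks each value towards its gene's average. Differences are therefore understated, above all where a gene has few reads. The depth of each sample is unknown, and its precision is seen here only as the spread between mice.

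Des separated the genotypes in each sample (11.76 to 11.89 in desmin knock-out and 16.10 to 17.74 in wild-type muscle). All 10 skeletal muscle markers, such as Myh4, Acta1 and Tnnt3, were above the limit for testing. Myh4 alone of them had an adjusted p under 0.05 (-0.71, adjusted p = 0.036 from limma). Myh4, Ckm, Ryr1 and Tnnt3 were lower without overlap between the genotypes, as were 6.97% of all tested genes. The 10 markers had a median log2 difference of -0.41, and 1 of them had a higher mean in knock-out muscle. Their summed level (log2 of the sum) was 22.23 to 22.42 in knock-out and 22.44 to 23.41 in wild-type mice, or at most 22.83 without wild-type mouse 3. Wild-type mouse 3 stood apart, with a summed expression (2 to the power of each value) 1.48 times the median over the mice, against 0.949 to 1.06 in the others. It correlated on average at 0.982 with its genotype, where the remaining wild-type animals had 0.989 to 0.991. In bulk muscle RNA, fewer cells of a type and less RNA per cell cannot be told apart.

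Of the 59 serpin genes, 12 had a mean rlog value of at least log2(10) over the 10 mice and were tested. The other 47 lay below this limit, of which 23 were listed at 0 in all 10 mice and 24 were not. Clade B had 26 genes with 6 tested, and clade A had 24 genes with 2 tested. From clades F, G, H and I, 1 gene each was tested. Nearest above the limit were Serpini1, Serpina3c and Serpinb6b, with means over all mice of 5.41, 5.54 and 6.20. Nearest below it were Serpinb6c, Serpina12 and Serpina3m, with means of 2.57, 2.16 and 1.43. Serpinc1, the thrombin inhibitor antithrombin, and Serpind1, heparin cofactor II, are made by the liver and had means of 0.82 and 1.13.

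**Figure D1:**
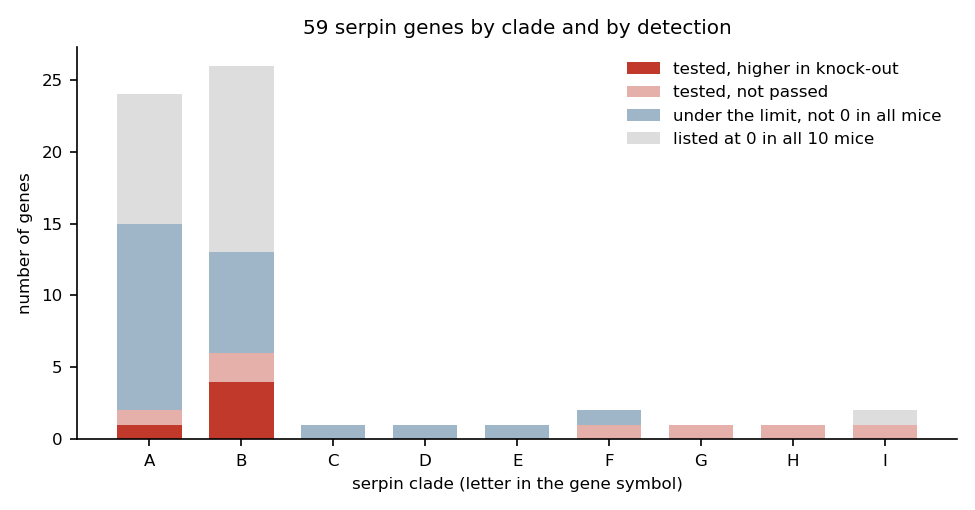
Number of serpin genes (y axis) in each clade (x axis), split into genes tested and higher in desmin knock-out muscle, tested without passing, under the expression limit but not at 0 in all mice, and listed at 0 in all 10 mice. Clades A and B hold 24 and 26 of the 59 genes, and 4 of the 5 genes that rose are in clade B.

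Serpin transcripts that differed between the genotypes were all higher in desmin knock-out muscle. These were Serpinb1a, Serpinb8, Serpina3n, Serpinb6b and Serpinb1c, 5 of the 12 tested genes at an adjusted p under 0.05 (limma, Benjamini-Hochberg adjustment over 14289 genes). That is 41.7% of the tested serpins, whereas 13.7% of all tested genes passed, 7.7% as higher and 5.99% as lower. None of the serpins was lower. The median log2 difference of the 12 genes was 0.32, compared with -0.0029 over all tested genes, and 9 of the 12 had a higher mean in desmin knock-out muscle, compared with 49.5% of all tested genes. For 4 of them, all knock-out values lay above all wild-type values, a pattern that 7.45% of all tested genes had. The opposite order was found for 6.97% of all genes and for no serpin. A log2 difference of at least 1 upwards was found for Serpinb1a and Serpinb8, and for 1.66% of all tested genes. These p-values set each difference against the spread between the mice studied, with a variance that borrows from other genes. As several of these genes lie side by side and share sequence, they are not independent of each other.

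**Figure D2:**
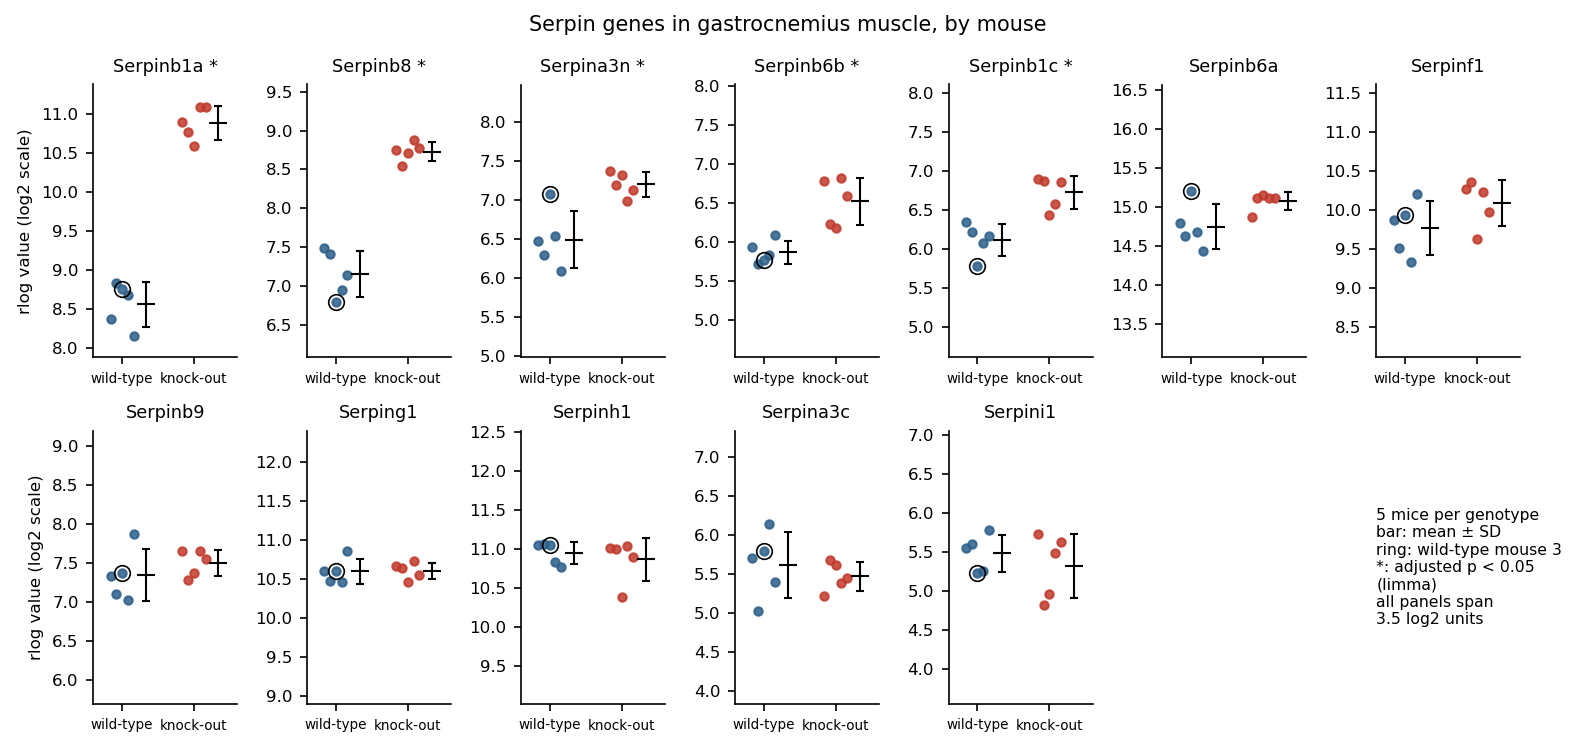
The rlog value (y axis, log2 scale) of each of 12 serpin genes in 5 wild-type (blue) and 5 desmin knock-out mice (red), with the mean and SD as bars, wild-type mouse 3 ringed and each panel spanning the same height. For Serpinb1a all knock-out mice lie at 10.58 or above and all wild-type mice at 8.83 or below. The knock-out values of Serping1 lie within the wild-type range. Those of Serpinh1 do so as well, apart from knock-out mouse 3 at 10.39.

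Serpinb1a, the mouse counterpart of the leukocyte elastase inhibitor, showed the largest difference of the family. It acts inside cells against elastase, cathepsin G and proteinase 3 of neutrophils. The 5 knock-out mice had rlog values of 10.90, 10.76, 10.58, 11.09 and 11.08, and the 5 wild-type mice had 8.37, 8.83, 8.75, 8.67 and 8.15. The genotypes were thus separated by 1.75 log2 units between the lowest knock-out and the highest wild-type mouse. The log2 difference was 2.33 (standard error 0.14, 95% interval 2.02 to 2.64, adjusted p = 3.16e-07 from limma), which is 5.02-fold on the rlog scale and the rise ranked 5 among all 14289 tested genes. Serpinb1a (ENSMUSG00000044734) lies on the reverse strand of chromosome 13 of GRCm38 from 32842092 to 32851185.

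Serpinb1c (ENSMUSG00000079049, chromosome 13, 32881434 to 32898211) is the neighbouring paralog of Serpinb1a and was higher by a smaller amount. Knock-out mice had 6.89, 6.87, 6.43, 6.57 and 6.86, and wild-type mice had 6.34, 6.21, 5.78, 6.07 and 6.17. The genotypes did not overlap, but only 0.09 log2 units lay between the nearest mice. On average they differed by 0.61 log2 units with a standard error of 0.14 (limma, adjusted p = 0.00841). The coding sequences of both genes (1137 and 1125 bases, GENCODE M21) agreed at 89.7% of 1121 aligned bases. The longest run without a difference is shown because reads that fall within it match both genes. It covers coding bases 238 to 308 of Serpinb1a, from its exon 3 of 7 into exon 4, with the intron in between (GRCm38, chr13:32847506-32848687, reverse strand).
Serpinb1a: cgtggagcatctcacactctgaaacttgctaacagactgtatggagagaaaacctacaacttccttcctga
Of the 50-base windows of Serpinb1c transcripts, 6.28% also occur in transcripts of other genes, and 2.75% in those of Serpinb1a. For Serpinb1a the shares were 2.81% with any gene and 2.02% with Serpinb1c. How the authors treated reads with several matches is not given in the sources used here. The part of such reads in the higher Serpinb1c values was not tested.

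Serpinb6b (ENSMUSG00000042842, chromosome 13, 32965209 to 32979067), a further clade B gene of this cluster, had 6.79, 6.23, 6.19, 6.83 and 6.59 in knock-out mice. Wild-type mice had 5.94, 5.72, 5.78, 5.84 and 6.09. The ranges were again apart by 0.09, and the mean difference was 0.65 log2 units with a standard error of 0.15 (limma, adjusted p = 0.00953). Of its 50-base windows, 2.92% were shared with other genes, mainly Serpinb6c. Serpinb6c, Serpinb6e and Serpinb9b of the same cluster lay below the limit, and Serpinb6c had 2.55 in knock-out and 2.59 in wild-type muscle on average.

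Serpinb6a (ENSMUSG00000060147, chromosome 13, 33917918 to 34002794) is an intracellular inhibitor of cathepsin G and trypsin-like proteases. Knock-out mice had 14.87, 15.11, 15.15, 15.12 and 15.11, and wild-type mice had 14.79, 14.63, 15.21, 14.68 and 14.43. All knock-out mice were above 4 of the wild-type mice, and the highest of the 10 values belonged to wild-type mouse 3. The log2 difference of 0.33 (95% interval 0.03 to 0.62) did not pass (adjusted p = 0.142 from limma). Without wild-type mouse 3 it was 0.44 and passed (adjusted p = 0.00449 from limma), and it also passed after quantile normalization (adjusted p = 0.00771) and with sample weights (adjusted p = 7.02e-04, both limma). In the other 14 of 17 alternatives it did not pass. With median centring, for example, the difference was 0.28 (adjusted p = 0.253 from limma). Of the exon length of Serpinb6a, 14.1% overlaps with Nqo2, 4.46% with Ripk1 and 10.8% with the antisense gene 1110046J04Rik, all on the opposite strand. The library kit was stranded, but whether reads were counted by strand is not given in the sources used here. None of these 3 genes passed.

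Serpinb9 (ENSMUSG00000045827, chromosome 13, 33003250 to 33017957), the inhibitor of granzyme B, did not pass either. Knock-out mice had 7.66, 7.28, 7.38, 7.66 and 7.55, all within the range of the wild-type mice, which had 7.34, 7.11, 7.37, 7.03 and 7.88. The log2 difference was 0.16 with a 95% interval from -0.17 to 0.49 (adjusted p = 0.536 from limma).

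The serpin B cluster on chromosome 13 holds 15 of the serpin genes between 32842092 and 34002794, of which 5 were tested and 3 rose. Of 15 other tested genes in the cluster or within 1 Mb of it, 2 were higher and none was lower, where 7.7% of all tested genes were higher and 5.99% lower, with a median log2 difference of 0.14. The 2 were Wrnip1 (0.30, adjusted p = 0.0454) and Slc22a23 (0.43, adjusted p = 0.00859, both limma). Serpinb1a thus had the largest difference of the 20 tested genes in this region.

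**Figure D3:**
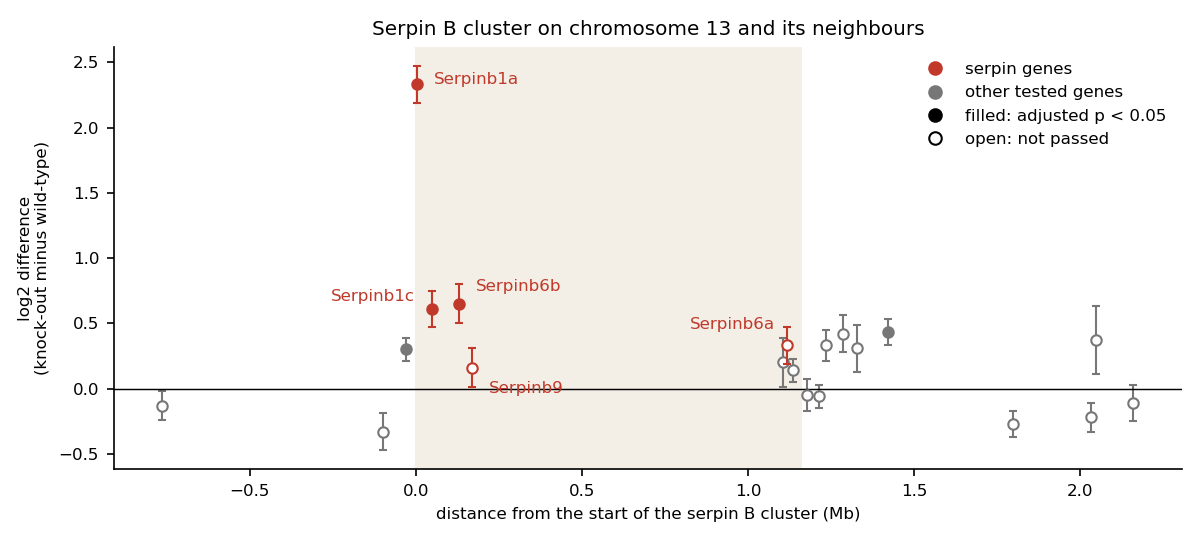
Log2 difference between desmin knock-out and wild-type muscle (y axis, bars are standard errors) of tested genes in and around the serpin B cluster of chromosome 13, against the distance of each gene's middle from the start of the cluster in Mb (x axis, cluster shaded). Serpin genes are red and other genes grey, and filled points passed an adjusted p of 0.05 (limma). Serpinb1a, at 2.33, lies far above all others, which stay at 0.65 or below.

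Serpinb8 is encoded on another chromosome and was the second-largest rise of the family. It is an intracellular inhibitor of the proprotein convertase furin. Knock-out mice had 8.75, 8.54, 8.71, 8.88 and 8.77, and wild-type mice had 7.49, 7.42, 6.80, 6.95 and 7.15. The lowest knock-out value exceeded the highest wild-type value by 1.06. This gave a log2 difference of 1.57 (standard error 0.14, 95% interval 1.28 to 1.86, adjusted p = 6.18e-06 from limma), or 2.97-fold on the rlog scale. Serpinb8 (ENSMUSG00000026315, chromosome 1, 107590006 to 107610484) is the only tested gene of the 11 in the serpin B cluster of chromosome 1, which lies on the same chromosome as Des, 32.2 Mb away. Of 7 other tested genes within 1 Mb of this cluster, none was higher and 2 were lower (7.7% and 5.99% of all tested genes), Phlpp1 (-0.41, adjusted p = 0.0142) and the lincRNA D830032E09Rik (-0.75, adjusted p = 0.00767, both limma).

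Serpina3n, a secreted relative of antichymotrypsin that blocks cathepsin G, leukocyte elastase and granzyme B, was the only clade A gene that passed. Knock-out mice had 7.37, 7.19, 7.32, 6.98 and 7.13, and wild-type mice had 6.47, 6.29, 7.07, 6.54 and 6.09. Wild-type mouse 3 with 7.07 was the only wild-type mouse that reached the knock-out range. The means differed by 0.71 log2 units with a standard error of 0.16 (limma, adjusted p = 0.0106), and by 0.85 without wild-type mouse 3. Serpina3n (ENSMUSG00000021091, chromosome 12, 104406729 to 104414329) belongs to the serpin A cluster with 23 of the serpin genes, of which 2 were tested. Of 20 other tested genes within 1 Mb of that cluster, 2 were higher and 2 lower (7.7% and 5.99% of all tested genes), and Prima1 had the largest difference (-1.23, adjusted p = 2.47e-04 from limma). Of the 50-base windows of Serpina3n, 6.9% occur in transcripts of other genes, most often those of the pseudogene Serpina3e-ps (2.68%). Serpina3c (ENSMUSG00000066361, chromosome 12, 104146382 to 104153870) had 5.22 to 5.68 in knock-out and 5.03 to 6.14 in wild-type mice, a log2 difference of -0.15 with a 95% interval from -0.54 to 0.25.

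Exact permutation tests of the single genes over the 10 mice gave p = 0.00794 for Serpinb1a, Serpinb8, Serpinb6b and Serpinb1c, the smallest p that 5 mice against 5 allow (two-sided). For Serpina3n the exact permutation test gave p = 0.0159.

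Sequences upstream of the transcription start were available for 10 of the 12 tested genes (RefSeq, GRCm38.p6, 250 bases before each start). The promoters of Serpinb8 and Serpina3n are shown as examples of genes that rose and hold a match of a short binding motif, in capitals. Serpinb1c and Serpinb6b also rose and hold matches, named further on, and are not printed. For Serpinb8 this is the AP-1 motif TGANTCA at bases -23 to -17 from the start (chr1:107589756-107590005, forward strand). For Serpina3n it is the palindromic motif of the glucocorticoid receptor at bases -78 to -66 (chr12:104406458-104406707, forward strand).
Serpinb8: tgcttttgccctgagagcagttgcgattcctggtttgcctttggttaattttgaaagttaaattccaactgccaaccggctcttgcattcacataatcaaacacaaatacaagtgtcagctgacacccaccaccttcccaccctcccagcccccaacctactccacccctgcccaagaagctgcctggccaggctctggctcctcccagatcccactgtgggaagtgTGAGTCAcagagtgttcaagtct
Serpina3n: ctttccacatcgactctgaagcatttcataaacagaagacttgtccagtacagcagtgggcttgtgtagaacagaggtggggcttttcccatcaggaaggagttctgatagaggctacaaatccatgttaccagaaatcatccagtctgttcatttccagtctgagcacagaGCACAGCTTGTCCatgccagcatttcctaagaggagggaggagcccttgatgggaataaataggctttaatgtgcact
Both strands were searched for 7 motifs. The AP-1 motif was found in 7.82% of 27025 genes with such a sequence and in Serpinb8 alone of the 10 serpins. The palindromic motif of the glucocorticoid receptor was found in 0.44% of all genes and in Serpina3n and Serpina3c, which are paralogs, and Serpina3c did not pass. The STAT motif TTCNNNGAA was present in Serpinb6a (8.13% of all genes), the NF-kB motif GGGNNTTCC in Serpinb1c (5.61%) and the C/EBP motif TTGCNNAA in none (10.8%). The GC box GGGCGG was present in Serpinb6a, Serpinb6b and Serpinh1 (35.4% of all genes), and TATAAA in Serpina3c and Serpinb1c (14.3%). Serpinb1a was not searched. Among the other 4 genes that rose, no motif was present in more than 1.

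The tested members of clades F, G, H and I did not pass. Serpinf1 (ENSMUSG00000000753, chromosome 11, 75409769 to 75422701), the non-inhibitory pigment epithelium-derived factor, had 10.26, 10.35, 9.62, 10.23 and 9.97 in knock-out mice and 9.87, 9.51, 9.93, 9.33 and 10.20 in wild-type mice. Of the knock-out animals, 3 lay above the whole wild-type range. The log2 difference was 0.32 with a 95% interval from -0.05 to 0.69 (adjusted p = 0.255 from limma), and it passed with sample weights only (adjusted p = 0.0437 from limma). Serping1 (ENSMUSG00000023224, chromosome 2, 84765387 to 84775444), the inhibitor of C1 esterase and plasma kallikrein, had a mean of 10.61 ± 0.10 (SD, n = 5) without desmin and of 10.60 ± 0.16 (SD, n = 5) with it. The log2 difference of 0.01 had the narrowest interval of the family, from -0.20 to 0.22. Serpinh1 (ENSMUSG00000070436, chromosome 7, 99345376 to 99353239), known as HSP47, is the chaperone that binds procollagen in the endoplasmic reticulum. Its values ranged from 10.39 to 11.04 in knock-out and from 10.77 to 11.07 in wild-type mice. Knock-out mouse 3 was the lowest of all mice. The log2 difference was -0.09 with a 95% interval from -0.36 to 0.19. Serpini1 (ENSMUSG00000027834, chromosome 3, 75557547 to 75643495), neuroserpin, which inhibits tissue-type plasminogen activator, had 4.82 to 5.73 in knock-out and 5.23 to 5.79 in wild-type mice (log2 difference -0.16, 95% interval -0.57 to 0.24).

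**Figure D4:**
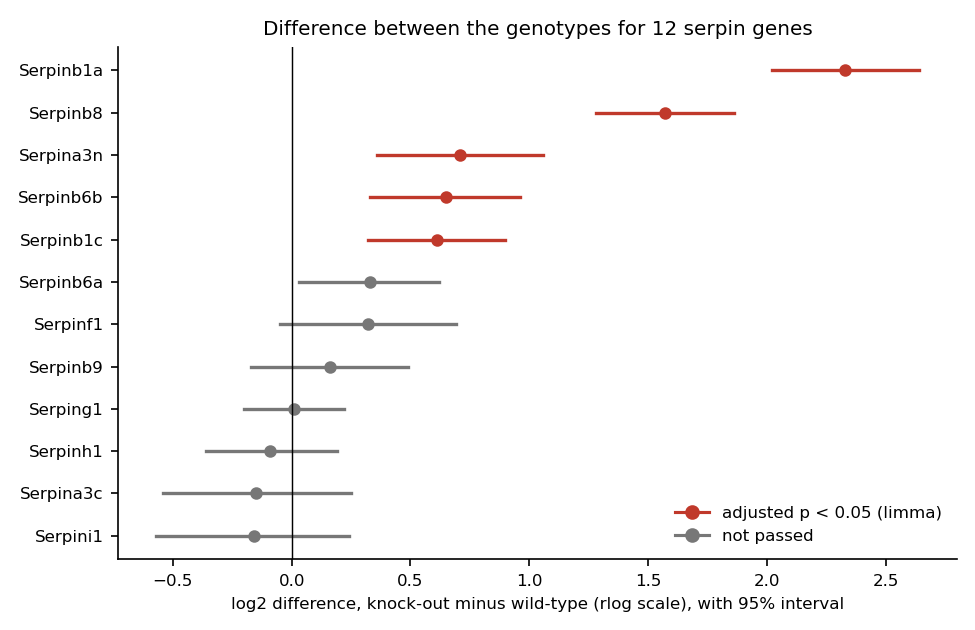
Log2 difference between desmin knock-out and wild-type muscle (x axis, rlog scale) with its 95% interval from limma for the 12 tested serpin genes, in red where the adjusted p was under 0.05. Serpinb1a and Serpinb8 lie at 1.57 or above, 3 more genes lie between 0.61 and 0.71, and the intervals of 6 of the other 7 include 0.

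Divided by the length of the merged exons, Serpinb6a had the highest level of the family in both genotypes, 12.31 in wild-type and 12.64 in knock-out muscle (log2 level per kb). In wild-type muscle it was followed by Serpinh1 (9.67), Serping1 (9.39), Serpinf1 (8.53) and Serpinb1a (7.35). In knock-out muscle Serpinb1a had 9.68 and stood next to Serpinb6a. Serpinh1 (9.58) followed there, nearer to Serpinb1a than the SDs of both between the knock-out mice (0.27 and 0.22), and then Serping1 (9.40). In wild-type muscle Serpinb9 (5.54), Serpina3n (5.44) and Serpinb1c (5.41) were closer to each other than their SDs of 0.21 to 0.37. Serpinb8 moved from rank 9 to rank 6 of the 12 genes. Serpini1 had the lowest level in both.

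Below the expression limit, Serpina12, the adipokine vaspin, was the only one of 24 serpin genes whose genotypes did not overlap. It had 2.47, 2.74, 2.18, 2.29 and 2.27 in knock-out mice and 1.89, 1.91, 1.93, 1.94 and 1.94 in wild-type mice. Such separation, with the knock-out higher, was found for 1.49% of the 13864 genes below the limit that were not at 0 in all mice, and in either direction for 5.49%. In a fit without the limit the log2 difference of 0.47 had an adjusted p of 0.0259 (limma, 5.55% of 28153 genes passed). At such low levels the shrinkage of rlog is strongest. Serpina3m had 1.51 in knock-out and 1.34 in wild-type muscle on average (adjusted p = 0.192 from limma).

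Proteases and partners of the serpins were followed in 7 lists. Each gene was tested in the same fit, and the lists are described by counts. In the plasminogen and thrombin system, 3 of 19 tested genes were higher and 1 lower (median log2 difference 0.11). Over all tested genes, 7.7% were higher and 5.99% lower. The plasminogen activators were not among them, as Plat, a target of Serpini1, and Plau had log2 differences of 0.09 and 0.03 (adjusted p = 0.753 and 0.891 from limma). Higher were Anxa2, a cell surface partner of plasminogen activation (log2 difference 0.83, adjusted p = 6.03e-05), the thrombin receptor F2r (0.77, adjusted p = 0.00129) and the prothrombin gene F2 (0.86, adjusted p = 0.00265, limma for all), all without overlap. The lower gene was the endothelial protein C receptor Procr (-0.47, adjusted p = 0.0379 from limma). Prothrombin had a low level, with 4.09 in knock-out and 3.23 in wild-type muscle. The wild-type mean lay below the limit for testing, so F2 entered the tests only through the knock-out mice. Its place among the higher genes of this list is therefore not independent of the limit. In the fit without the limit F2 had an adjusted p of 0.0124 (limma).

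Among granule serine proteases, the targets of several clade A and B serpins, 4 of 11 genes were tested and 3 of them were lower, compared with 5.99% of all tested genes. With the limit at log2(50) 1 passed. They were Gzmm (log2 difference -0.59, adjusted p = 0.00229) and the mast cell proteases Mcpt4 (-0.91, adjusted p = 0.00975) and Tpsb2 (-0.85, adjusted p = 0.043, all limma). Elane, neutrophil elastase, was listed at 0 in all mice, and Ctsg, Prtn3 and Gzmb were below the limit. Thus none of Elane, Ctsg and Prtn3, the neutrophil targets of Serpinb1a, reached the limit, which applies to the mean over all mice and not to each genotype. Of the C1 and contact system, none of 8 tested genes passed, and C1s1, a target of Serping1, had a log2 difference of 0.22.

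The collagen folding partners of Serpinh1 showed 1 of 21 tested genes higher and 1 lower (median -0.03). Of all tested genes, 7.7% were higher and 5.99% lower. P3h2, a prolyl 3-hydroxylase, was higher (log2 difference 1.46, adjusted p = 8.32e-05) and P4ha2, a prolyl 4-hydroxylase subunit, was lower (-0.52, adjusted p = 0.00591, both limma). Of the cysteine cathepsins, 3 of 10 tested genes were higher (7.7% of all tested genes) and none was lower (5.99%), with a median of 0.19. These were legumain, Lgmn (0.46, adjusted p = 0.00573), the collagen-degrading Ctsk (0.94, adjusted p = 0.0153) and Ctsl (0.33, adjusted p = 0.0375, all limma). Ctsl lost its call in 12 of 17 alternatives. Only 1 cathepsin passed without the limit, and 1 at an adjusted p under 0.01 (limma).

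Other extracellular serine proteases had 3 higher and 3 lower genes of 10 tested (7.7% and 5.99% of all tested genes). Klk1, tissue kallikrein, showed the largest difference of all lists with 6.18 ± 0.25 (SD, n = 5) against 4.18 ± 0.09 (SD, n = 5) in the wild-type (limma, adjusted p = 4.14e-07). As the kallikrein family contains near-identical copies, reads could be split among them. Htra1 was lower (-1.15, adjusted p = 3.51e-05) and Prss23 higher (0.81, adjusted p = 2.25e-04, both limma). Of the non-serpin protease inhibitors, 3 of 14 tested genes were higher and none was lower (median 0.15), namely the Kazal-type inhibitor Spink5 (0.88, adjusted p = 3.12e-04), the cathepsin inhibitor Cstb (0.61, adjusted p = 0.00241) and Itih4 (0.48, adjusted p = 0.0343, all limma). Spink5 had means of 3.93 in knock-out and 3.05 in wild-type muscle. Like F2, it entered the tests only through the knock-out mice, and its call is not independent of the limit. By percent of tested genes in either direction, 75% of the granule serine proteases (3 of 4) passed. For the other extracellular serine proteases it was 60% (6 of 10), and for the serpins 41.7% (5 of 12). The granule share rests on 4 tested genes, of which Tpsb2 lost its call in 7 of 16 alternatives. The share was 30% for the cathepsins, 21.4% for the non-serpin inhibitors, 21.1% for the plasminogen and thrombin list, 9.52% for the collagen folding partners and 0% for the C1 and contact system, compared with 13.7% of all genes. The shares of the non-serpin inhibitors and of the plasminogen and thrombin list include Spink5 and F2. As both entered the tests only through the knock-out mice, these shares are not independent of the limit.

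**Figure D5:**
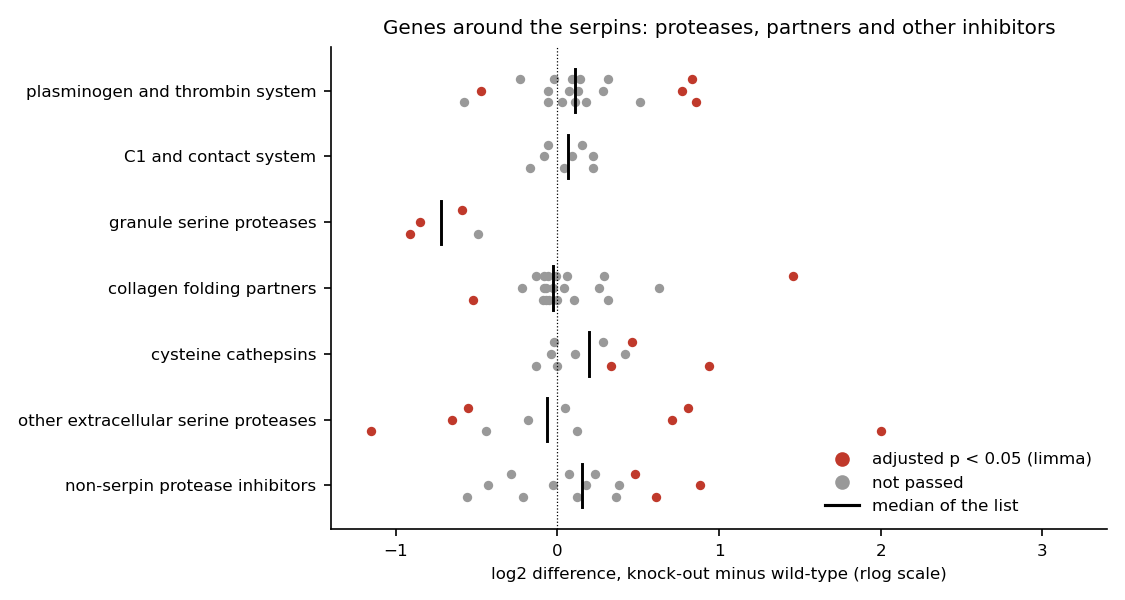
Log2 difference between desmin knock-out and wild-type muscle (x axis, rlog scale) of each tested gene in 7 lists of proteases, partners and other inhibitors (y axis), in red where the adjusted p was under 0.05 (limma), with the median of each list as a bar. The granule serine proteases lie at -0.49 or below, Klk1 lies farthest to the right, and the genes of the C1 and contact system cluster around 0.

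Markers of other cell types were measured beside the serpins, and their counts stand against shares of 7.7% (higher) and 5.99% (lower) over all tested genes. Of 9 macrophage markers, such as Lyz2, C1qa and Csf1r, none passed, and their summed level (log2 of the sum) ranged from 11.08 to 11.56 in knock-out and from 11 to 11.44 in wild-type mice. Of 9 neutrophil markers, Camp and Elane were listed at 0 in all mice, 5 more were below the limit, S100a8 did not pass and S100a9 was lower (-1.18, adjusted p = 2.54e-04 from limma). S100a9 had means of 2.84 in knock-out and 4.02 in wild-type muscle, so it entered the tests only through the wild-type mice. The summed neutrophil level was 4.92 to 5.35 in knock-out and 5.10 to 5.71 in wild-type mice. All 8 T and NK cell markers and all 7 hepatocyte markers were below the limit or at 0. Mast cell markers were lower for 3 of 5 tested genes, Cpa3, Mcpt4 and Tpsb2 (summed level 6.62 to 7.36 against 7.26 to 8.09). Mcpt4 and Tpsb2 are also counted among the granule serine proteases. Endothelial markers were lower for 4 of 6 (11.66 to 12.11 against 12.13 to 12.58), without overlap. Fibroblast markers were higher for 3 of 8, Lum, Col1a1 and Col3a1, with overlapping sums (14.81 to 15.27 against 14.23 to 15.29). Pericyte and smooth muscle markers had 1 of 6 higher, Cspg4, and sums of 13.45 to 13.72 against 13.62 to 14.30. None of 6 Schwann cell and 6 adipocyte markers passed (sums of 10.89 to 11.35 against 10.59 to 11.40, and of 12.61 to 12.90 against 12.43 to 13.08). Of 6 satellite cell and regeneration markers, Myh3, Mymk, Mymx and Myog were higher and Myod1 was lower, and the sums did not overlap (10.62 to 11.21 against 9.99 to 10.34). The part of the endothelial, mast cell, fibroblast and regeneration markers in the serpin differences was not tested.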

How the data were processed

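Gastrocnemius RNA-Seq values of 10 mice, 5 per genotype, were analysed. The submitters' processing notes name cutadapt 2.5, STAR 2.5.4a, Subread 1.6.1, featureCounts, DESeq2 and GRCm38. The deposited table holds rlog values on a log2 scale, made by the authors. No counts were used here, so a count test was not possible and depth is unknown. Of 54232 genes, 26079 had 0 in all mice, and 54165 matched a symbol in GENCODE M21 (GRCm38). Tests were made with limma 3.58.1 (R 4.3.3) for 14289 genes whose mean reached log2(10). The variance prior was allowed to depend on the mean, tests were two-sided, and p-values were adjusted by Benjamini-Hochberg over all of these genes. The procedure was tested on simulated data. Single genes were tested by exact permutation tests.

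A further serpin gene is not reported here. The members and lists were chosen with earlier results of these data known. Named were all tested serpins, up to 3 genes of each list with the smallest adjusted p under 0.05, and the most abundant markers. Procr, Plat, Plau, C1s1, Elane, Ctsg, Prtn3, Gzmb, Camp, Ckm, Ryr1, the liver serpins, Serpinb6e, Serpinb9b, Htra4, Klk8, the neighbours and further markers that passed were named after their values were seen. Alternatives were other expression limits, a single prior variance, quantile normalization, median centring, weights per sample, the replicate number as a block, each mouse left out and an adjusted p under 0.01. Motifs and sequence comparisons were computed in Python 3.11.15.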

Additional observations from a re-analysis of the deposited data

Results flagged for a closer look

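Each genotype was examined for a mouse far from the other 4, for the 12 tested serpin genes and Des. Of 26 such groups, 3 had one, where chance, at about 1 in 20 groups, gives 1.3. Knock-out mouse 1 lay below the other knock-out mice for Serpinb6a (14.87), and knock-out mouse 3 lay below them for Serpinh1 (10.39). For Des, wild-type mouse 3 was far higher (17.74) than the rest of its genotype.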

How the results depend on the processing

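The number of serpin genes that passed was 4 to 7 over the alternatives, and the 5 that rose passed at an adjusted p under 0.05 in every alternative that was run (Serpinb1a from 2.22 to 2.43 on the log2 scale, Serpinb1c from 0.48 to 0.68). Of them, Serpina3n alone did not reach 0.01 in the main fit (0.0106). Over the alternatives the largest adjusted p was 0.0328 for Serpina3n, 0.0316 for Serpinb6b and 0.0289 for Serpinb1c. For Serpinb1a and Serpinb8 it stayed under 0.01 (all limma). Without a given mouse, 5 or 6 serpin genes and 1400 to 2496 of all tested genes passed, the highest number without wild-type mouse 3. Des had between -4.85 and -4.44. Sample weights gave 4220 of all tested genes, 7 of the plasminogen and thrombin list and 6 of the collagen folding partners, and an adjusted p under 0.01 left 994 of all tested genes and 1 cathepsin. Without the limit 1 cathepsin passed. With a limit of log2(50), which tests fewer genes, 1 granule protease and 1 non-serpin inhibitor passed. Signs turned only for genes that did not pass. Serpina3c had 0.04 with sample weights, Serping1 had -0.03 with median centring and between -0.03 and 0.08 without 1 mouse (below 0 without knock-out mouse 1 or 4 or wild-type mouse 2 or 4). Serpinh1 ranged from -0.13 to 0.03 without 1 mouse (above 0 without knock-out mouse 3). The cause was not tested. Of the partner genes, Ctsl lost its call in 12 of 17 alternatives, Procr and Htra4 in 10 each, Ctsk in 1, and, of 16, Itih4 in 9, Tpsb2 in 7 and Klk8 in 1. Same-numbered mice did not deviate together (correlations from -0.219 to 0.0673, and from -0.204 to 0.283 for mice of different numbers). No pairing by number was thus seen, but so few pairs cannot exclude one. With the replicate number as a block 5 serpin genes and 1579 of all genes passed. Depth is unknown, which limits the genes of low level most.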
